A study of Homo sapiens with 18 samples.

Results

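The alpha- and beta-secretases of the amyloid precursor protein (APP) were examined as a group of 5 genes, chosen by name: ADAM9, ADAM10 and ADAM17, which encode alpha-secretases, BACE1, which encodes the main beta-secretase, and BACE2, its close relative. All 5 were found among the 57905 Ensembl IDs of the count tables. RNA of BE(2)-m17 cells, an established human neuroblastoma line, was sequenced in 3 experiments named RNA1, RNA2 and RNA3 in the labels, with 3 libraries of each of 2 lines per experiment and 18 libraries in all. Every library came from cells that carry the vector pSBbi-Hyg-APP, which adds a codon-optimized human APP. The control line, Puro, also carries the empty vector pSBbi-Pur, and the compared line, ABCC1, carries pSBbi-Pur-ABCC1(WT), which adds the wild-type ABC transporter ABCC1. In each experiment 14000000 cells were plated per well and lysed on day 4. Both vectors are Sleeping Beauty transposons, the lines were selected with antibiotics, and cells were plated week by week per the study's methods. Of the later experiments, one used cells thawed from frozen stocks and the other used lines made by a new transfection, and the labels do not say which of RNA2 and RNA3 was which, so Puro and ABCC1 are not the same transfected cells throughout. Which week a library came from and whether a line is 1 clone are not given in the sources used here, so p-values measure the spread between these libraries.

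APP is cut by rival enzymes. An alpha-secretase cuts within the Abeta sequence and releases sAPPalpha, so that Abeta cannot form from that molecule, whereas the beta-secretase BACE1 cuts at the start of the Abeta sequence and releases sAPPbeta, after which gamma-secretase frees Abeta. ADAM10 is regarded as the constitutive alpha-secretase of neurons, ADAM17 (also known as TACE) also sheds TNF and ligands of the EGF receptor, and ADAM9 is a related membrane metalloproteinase, while BACE2 cuts APP mostly within the Abeta sequence and is best known from pancreas and pigment cells.

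ADAM17 was the secretase gene with the most even response: it was higher in all ABCC1 libraries than in all Puro libraries in each of the 3 experiments, by a log2FC of 0.13 ± 0.05 (SE) in RNA1, 0.30 ± 0.16 in RNA2 and 0.38 ± 0.16 in RNA3. These values were at or above those of 67.7%, 79.5% and 87.4% of all genes tested. How many of all genes had no overlap in all 3 experiments was not counted. None of these 3 differences passed the test within its experiment, in which 37.6%, 1.7% and 2.8% of all genes did, while their mean passed in a joint fit of the 18 libraries, in which 12.9% of genes did. That call was lost with background reads as a covariate (mean 0.14, adjusted p = 0.679 in edgeR's quasi-likelihood test), and background was lower with ABCC1 in every experiment. ADAM9 and ADAM10 were slightly lower with ABCC1 in RNA1, by 0.21 ± 0.05 and 0.13 ± 0.04 on the log2 scale. The ADAM10 call was lost in 5 of 6 fits that left out 1 library, and with background as a covariate both calls were lost at nearly the same differences with larger errors (−0.21 ± 0.11 and −0.12 ± 0.08). They were also lost when spread, filter and scaling were all taken from the 18 libraries, where the values were −0.11 and −0.0245. That scaling alone raised every log2FC in RNA1 by 0.10. BACE1 had the highest level per kilobase of the 5 genes in every group and did not pass the test in any experiment, with its largest log2FC, 0.41 ± 0.17, in RNA2. BACE2 was at or near the level of background reads in RNA2 and RNA3, and in RNA1 it had 8 counts or fewer in each library.

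The genes lie on 5 chromosomes of the GRCh37 build, and the level of a gene rests on the read pairs assigned to the exons of all its transcripts together. ADAM9 (ENSG00000168615) lies on the plus strand of chromosome 8 from 38854388 to 38962663 and has 6913 exon bases. ADAM10 (ENSG00000137845) lies on the minus strand of chromosome 15 from 58887403 to 59042177 and has 8636 exon bases. ADAM17 (ENSG00000151694) lies on the minus strand of chromosome 2 from 9628615 to 9695921. Of its 5481 exon bases, 1323 (24.1%) are shared with IAH1, a gene of the plus strand. BACE1 (ENSG00000186318) lies on the minus strand of chromosome 11 from 117156402 to 117186975. Of its 6711 exon bases, 760 (11.3%) are shared with RNF214 on the plus strand. BACE2 (ENSG00000182240) lies on the plus strand of chromosome 21 from 42539728 to 42654445, has 9619 exon bases and shares none with another gene. Counting ignored strand and left out pairs that fall on exons of 2 genes, so the shared stretches add nothing to ADAM17 or BACE1, and their levels per kilobase over all exon bases are lower than over the unshared bases alone.

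The promoter of ADAM17 is shown because its groups did not overlap in any of the 3 experiments and were in the same order in each. It was taken from RefSeq as 250 bases before to 50 bases after the gene's start, at chr2:9555781-9556080 on the minus strand of GRCh38.p14, and the capitals mark the hexamer GGGCGG, the core of the Sp1 binding site, or its complement CCGCCC:

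ADAM17: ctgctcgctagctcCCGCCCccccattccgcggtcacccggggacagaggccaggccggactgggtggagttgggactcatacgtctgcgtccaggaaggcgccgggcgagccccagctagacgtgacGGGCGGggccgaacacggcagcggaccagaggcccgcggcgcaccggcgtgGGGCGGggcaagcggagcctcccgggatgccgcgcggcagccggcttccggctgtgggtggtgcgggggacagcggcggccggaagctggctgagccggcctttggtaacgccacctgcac

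The ADAM17 promoter held 36 CpG dinucleotides, against a median of 14 over 27326 promoters of the same length, and 3 copies of the hexamer on the 2 strands. The promoters of ADAM10 and BACE1 held 30 and 17 CpG dinucleotides and 1 and 2 copies of the hexamer. At least 1 copy was found in 44.6% of all promoters, so its presence does not set these genes apart, and the letters TATAAA, present in 11.9% of all promoters on either strand, occurred in none of the 3. ADAM9 and BACE2 were not matched.

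The libraries held between 8866994 and 57937653 assigned read pairs, which is the depth behind each value and sets the counting error only, since the pairs carry no molecular identifiers. Values are given as normalised counts (CPM, which set the read pairs of a gene against all assigned pairs of its library), scaled by TMM within an experiment. The codon-optimized ABCC1 had 15 counts or fewer in each Puro library and at least 51035 in each ABCC1 library, as the labels say. All 10 markers of adrenergic neuroblastoma cells were found in every group. They summed to between 12289 and 13364 CPM in RNA1 Puro and between 10451 and 12030 in RNA1 ABCC1, and in RNA2 the order was the reverse, with 6819 to 8517 CPM in Puro and 8669 to 9593 in ABCC1, while in RNA3 the lines overlapped. In RNA1 the 5 mesenchymal markers summed to between 320.0 and 331 CPM in Puro and between 375 and 393 CPM in ABCC1, and the part of these markers in the results was not tested. Olfactory receptor genes, which these cells should not use, served as a gauge of background reads. Their 350 genes averaged 0.00511 ± 0.000432 CPM per kilobase (SD, n = 3) in RNA1 Puro and 0.00411 ± 0.000318 in RNA1 ABCC1. In RNA2 the background was 0.580 ± 0.0881 in Puro and 0.304 ± 0.149 in ABCC1, and in RNA3 it was 1.58 ± 0.0906 and 1.26 ± 0.157. In each experiment every ABCC1 library had less background than every Puro library, so background and line moved together. The part of the background in the results was examined only by the fits with background as a covariate or subtracted.

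In RNA1, 2 of the 4 secretase genes with enough counts to test were called at an adjusted p of at most 0.05, both lower with ABCC1. Of all 16995 genes tested in that experiment, 37.6% were called, 17.9% higher and 19.7% lower with ABCC1, so the share among the secretases was near that of all genes. In bulk RNA, fewer cells with a transcript and less of it per cell cannot be told apart. ADAM9, a membrane metalloproteinase with alpha-secretase activity, had 76.4, 78.8 and 78.4 CPM in the 3 Puro libraries and 68.5, 70.3 and 62.7 CPM in the 3 ABCC1 libraries. All ABCC1 libraries were below all Puro libraries, and the third ABCC1 library was the lowest. The log2FC was −0.21 ± 0.05, with an adjusted p of 0.00677 (edgeR's quasi-likelihood test, adjusted after Benjamini and Hochberg over all genes).

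ADAM10, the constitutive alpha-secretase, had 90.6, 89.9 and 90.7 CPM in RNA1 Puro and 84.3, 83.4 and 80.8 CPM in RNA1 ABCC1. The Puro libraries lay within 1 CPM of each other, and the ABCC1 libraries were all lower. The log2FC was −0.13 ± 0.04 with an adjusted p of 0.0282 in edgeR's quasi-likelihood test. The ADAM9 call held with each library left out in turn (adjusted p up to 0.0273), and the ADAM10 call was lost in 5 of the 6 such fits, those without each of the Puro libraries and the first and second of the ABCC1 libraries, with adjusted p-values of up to 0.0776.

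ADAM17 had 57.2, 54.8 and 54.8 CPM in RNA1 Puro and 63.4, 59.9 and 58.9 CPM in RNA1 ABCC1. The groups did not overlap, with ABCC1 higher, and the log2FC of 0.13 ± 0.05 missed the threshold in edgeR's quasi-likelihood test (adjusted p = 0.0555). Without the third ABCC1 library the log2FC was 0.15 and passed it (adjusted p = 0.00533). IAH1, which shares exon bases with ADAM17 on the other strand, fell by 0.37 on the log2 scale in the same libraries (SE 0.07, adjusted p = 0.00289 in edgeR's quasi-likelihood test), from 21.1 to 16.2 CPM, so the 2 genes moved in opposite directions.

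BACE1 had 125, 124 and 123 CPM in RNA1 Puro and 126, 122 and 128 CPM in RNA1 ABCC1. The groups overlapped and the difference was 0.02 ± 0.04 on the log2 scale (adjusted p = 0.749, edgeR's quasi-likelihood test). RNF214, which shares exon bases with BACE1, had a log2FC of 0.10 ± 0.04 and was not called (adjusted p = 0.107, edgeR's quasi-likelihood test).

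BACE2 was almost absent in RNA1. The Puro libraries held 1, 3 and 1 counts of it and the ABCC1 libraries 3, 8 and 4, too few to enter the test. The groups overlapped at 3 counts, and no fold is given. The background of olfactory receptor genes came to between 14.8% and 209% of the BACE2 level per kilobase in these 6 libraries.

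**Figure D1:**
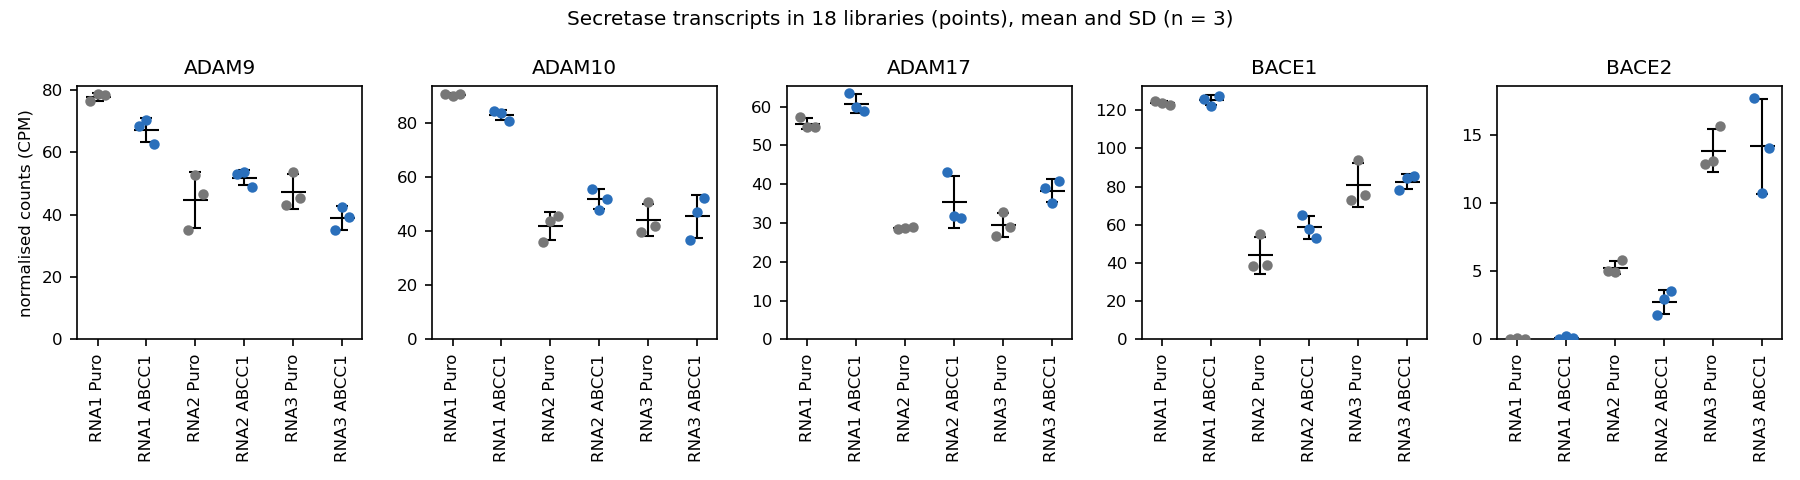
Normalised counts (CPM) of the 5 secretase genes in each of the 18 libraries, 1 panel per gene with its own axis from 0; grey points are Puro and blue points ABCC1 libraries, and the bars give the mean and SD of 3. ADAM17 is higher in all ABCC1 than in all Puro libraries in each experiment, ADAM9 and ADAM10 are lower with ABCC1 in RNA1, BACE1 changes with the experiment more than with the line, and BACE2 ranges from near 0 in RNA1 to means of 13.8 and 14.2 CPM in RNA3.

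In RNA2, none of the 5 secretase genes was called in edgeR's quasi-likelihood test, against 1.7% of 34091 genes tested (1.25% higher and 0.458% lower with ABCC1). At an unadjusted p under 0.05, 2 of the 5 passed, BACE1 and BACE2, as did 21.2% of all genes tested. DESeq2 and limma-voom called none of the 5 either, against 18.6% and 3.83% of all genes. ADAM10 had 35.9, 43.7 and 45.6 CPM in RNA2 Puro and 55.6, 48.0 and 51.8 CPM in RNA2 ABCC1. Here all ABCC1 libraries were higher, the reverse of the order in RNA1, with a log2FC of 0.31 ± 0.16 (adjusted p = 0.255, edgeR's quasi-likelihood test).

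ADAM17 had 28.5, 28.8 and 28.99 CPM in RNA2 Puro, nearly the same in each, and 43.2, 31.7 and 31.2 CPM in RNA2 ABCC1. All ABCC1 libraries were higher, and the first of them stood apart from the other two. The log2FC was 0.30 ± 0.16 (adjusted p = 0.279, edgeR's quasi-likelihood test). The first ABCC1 library was also the one with the least background, 0.140 CPM per kilobase, and the log2FC without it was 0.14. With the background as a covariate the log2FC was −0.04. ADAM17 did not stand alone in RNA2, as ADAM9, ADAM10 and BACE1 had positive log2FC values there too (0.21, 0.31 and 0.41).

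ADAM9 had 35.1, 52.8 and 46.7 CPM in RNA2 Puro and 53.0, 53.6 and 49.0 CPM in RNA2 ABCC1. The groups overlapped, and the first Puro library was the lowest. The log2FC was 0.21 ± 0.17 (adjusted p = 0.472, edgeR's quasi-likelihood test), and with 1 library left out it lay between 0.0858 and 0.35.

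BACE1 had 38.3, 55.2 and 38.7 CPM in RNA2 Puro and 65.0, 57.9 and 53.2 CPM in RNA2 ABCC1. The second Puro library reached into the range of the ABCC1 libraries, and the log2FC of 0.41 ± 0.17 was the largest positive value of the 5 genes among those tested, without passing the test (adjusted p = 0.172, edgeR's quasi-likelihood test). Without that library it was 0.62, with an adjusted p of 0.0844. Both neighbours of BACE1 on the other strand had positive values too, with a log2FC of 0.51 ± 0.17 for RNF214 (adjusted p = 0.0956, edgeR's quasi-likelihood test), and 0.26 ± 0.16 for CEP164 (adjusted p = 0.350), which shares no exon bases with it.

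BACE2 had 4.996, 4.95 and 5.83 CPM in RNA2 Puro and 1.80, 2.98 and 3.52 CPM in RNA2 ABCC1. All ABCC1 libraries were lower, with a log2FC of −0.92 ± 0.35 (adjusted p = 0.139, edgeR's quasi-likelihood test). Per kilobase, the background of olfactory receptor genes came to between 94.8% and 128% of the BACE2 level in the Puro libraries and to between 75.1% and 118% in the ABCC1 libraries. BACE2 and the background were lower together in the ABCC1 libraries, and BACE2 was not distinguishable from background at this depth.

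In RNA3, none of the 5 secretase genes was called, against 2.8% of 36509 genes tested with edgeR's quasi-likelihood test (2.03% higher and 0.767% lower with ABCC1), and of the 5 only ADAM17 had an unadjusted p under 0.05, against 15.2% of all genes. DESeq2 and limma-voom called none of the 5 either, against 14.2% and 2.85% of all genes. ADAM17 had 26.7, 32.8 and 28.98 CPM in RNA3 Puro and 38.9, 35.1 and 40.9 CPM in RNA3 ABCC1. All ABCC1 libraries were higher, with a log2FC of 0.38 ± 0.16 (adjusted p = 0.219, edgeR's quasi-likelihood test). Without the second Puro library the log2FC was 0.47 and passed the test (adjusted p = 0.0408). The background came to between 24.7% and 33.3% of the ADAM17 level in Puro and to between 15.3% and 20.2% in ABCC1. With background counts subtracted the log2FC was 0.39.

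ADAM9 had 43.2, 53.7 and 45.4 CPM in RNA3 Puro and 35.1, 42.6 and 39.3 CPM in RNA3 ABCC1. As in RNA1, all ABCC1 libraries were lower, with a log2FC of −0.28 ± 0.16 that did not pass the test (adjusted p = 0.411, edgeR's quasi-likelihood test) and lay between −0.35 and −0.16 with 1 library left out. With background counts subtracted, a choice made after seeing the data, it was −0.48 and passed (adjusted p = 0.0489).

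ADAM10 had 39.6, 50.7 and 41.9 CPM in RNA3 Puro and 36.7, 47.2 and 52.3 CPM in RNA3 ABCC1. The groups overlapped, with a log2FC of 0.04 ± 0.16 (adjusted p = 0.935, edgeR's quasi-likelihood test). BACE1 had 73.1, 94.1 and 75.7 CPM in RNA3 Puro and 78.0, 84.4 and 85.3 CPM in RNA3 ABCC1. Its groups overlapped as well, with a log2FC of 0.03 ± 0.17 (adjusted p = 0.961, edgeR's quasi-likelihood test).

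BACE2 had 12.8, 13.1 and 15.6 CPM in RNA3 Puro and 17.7, 10.7 and 14.03 CPM in RNA3 ABCC1. The groups overlapped with a log2FC of 0.03 ± 0.19 (adjusted p = 0.958, edgeR's quasi-likelihood test). The background came to between 78.1% and 122% of its level per kilobase over the 6 libraries.

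**Figure D2:**
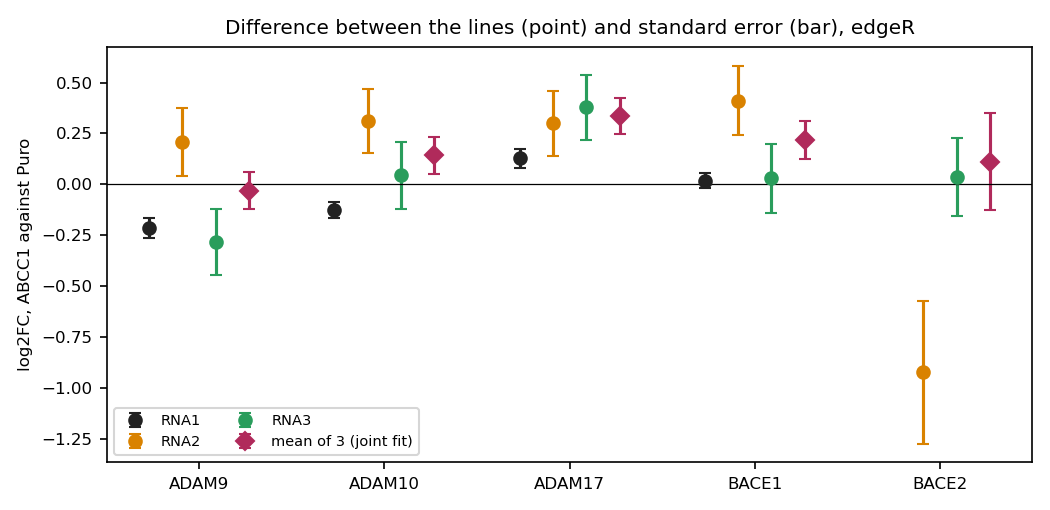
Difference between the lines as log2FC (ABCC1 against Puro; points) with its standard error (bars) for each secretase gene in RNA1, RNA2 and RNA3 and for the mean of the 3 in the joint fit. ADAM17 is above 0 in all 3 experiments and in the mean (0.33), ADAM10 lies below 0 in RNA1 and above 0 in RNA2, and BACE2 has no value for RNA1, where its counts were too few to test.

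To ask whether a gene moved on average over the experiments, and whether its difference varied between them, all 18 libraries were fitted together, although the experiments did not all use the same transfected cells. The mean log2FC of ADAM17 over the 3 experiments was 0.33 ± 0.09, with an adjusted p of 0.00491 in edgeR's quasi-likelihood test. It was the only secretase gene of the 5 called in that fit, in which 12.9% of 46225 genes were called, 9.39% higher and 3.55% lower with ABCC1. These were 4339 higher and 1641 lower genes, and 3341 higher and 2028 lower of 46068 tested with each library scaled as within its experiment. The mean was 0.22 ± 0.09 for BACE1 (adjusted p = 0.126), 0.14 ± 0.09 for ADAM10 (adjusted p = 0.420), −0.03 ± 0.09 for ADAM9 (adjusted p = 1.00) and 0.11 ± 0.24 for BACE2 (adjusted p = 1.00), all in edgeR's quasi-likelihood test. With only genes of at least 10 counts in every library, of which 36.8% of 14773 were called, the ADAM9 mean was −0.21 and was called as well (adjusted p = 0.00681, edgeR's quasi-likelihood test). The scaling of the joint fit raised the log2FC of every gene by 0.10 in RNA1, 0.02 in RNA2 and 0.08 in RNA3 relative to the scaling within experiments. With the latter scaling the ADAM17 mean was 0.27 (adjusted p = 0.0116, edgeR's quasi-likelihood test). The ADAM17 call held in all 18 fits that left out 1 library, with adjusted p-values between 0.000706 and 0.0319, and was lost with background as a covariate, where the mean was 0.14 (adjusted p = 0.679).

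The difference of the ABCC1 effect between experiments was called for none of the 5 genes in edgeR's quasi-likelihood test, against 1.19% of all genes. BACE2 had the smallest unadjusted p (0.00557, adjusted p = 0.213), and it was the only one of the 5 under 0.05, against 9.04% of all genes. For ADAM10, lower in RNA1 and higher in RNA2, the effect in RNA2 exceeded that in RNA1 by 0.35 on the log2 scale, with an adjusted p of 0.854 for any difference between the 3 experiments. DESeq2 called none of these differences either, against 2.77% of all genes.

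Levels were compared between genes per kilobase of exon. BACE1 had the highest mean in all 6 groups, at 18.4 ± 0.140 CPM per kilobase (SD, n = 3) in RNA1 Puro and 18.7 ± 0.405 in RNA1 ABCC1, 6.57 ± 1.44 and 8.75 ± 0.884 in RNA2, and 12.1 ± 1.71 and 12.3 ± 0.592 in RNA3. The libraries of BACE1 lay above those of the next gene in every group but RNA2 Puro, where BACE1 and ADAM9 overlapped. BACE2 had the lowest mean in all 6 groups, with no library reaching those of the gene above it.

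The 3 alpha-secretase genes lay close together between these extremes. In RNA1 Puro the order was ADAM9 (11.3 ± 0.182 CPM per kilobase), ADAM10 (10.5 ± 0.0516) and ADAM17 (10.1 ± 0.250), and ADAM10 and ADAM17 overlapped. In RNA1 ABCC1 the order was ADAM17 (11.1 ± 0.435), ADAM9 (9.72 ± 0.570) and ADAM10 (9.59 ± 0.209), and ADAM9 and ADAM10 overlapped. These levels are over all exon bases, on which ADAM17 stood below ADAM9 in Puro and above it in ABCC1. Over its unshared exon bases alone, the only ones that could add counts, ADAM17 had between 13.2 and 13.8 CPM per kilobase in RNA1 Puro, above ADAM9 (11.1 to 11.4), and between 14.2 and 15.3 in RNA1 ABCC1, so on that length it was above ADAM9 in both lines.

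Over all exon bases in RNA3 Puro, ADAM9 (6.87 ± 0.799 CPM per kilobase) was above ADAM17 (5.38 ± 0.561) with no overlap, and in RNA3 ABCC1 ADAM17 (6.99 ± 0.544) was above ADAM9 (5.64 ± 0.543), again with no overlap. ADAM10 (5.10 ± 0.680 in Puro and 5.26 ± 0.919 in ABCC1) was the lowest of the 3 in both lines, overlapping its upper neighbour. In RNA2 the order in both lines was ADAM9, ADAM17 and ADAM10, and each of these neighbours overlapped. Over unshared exon bases ADAM17 had between 6.41 and 7.88 CPM per kilobase in RNA3 Puro, where it overlapped ADAM9 (6.25 to 7.77), so the order of the alpha-secretases depends on the length used.

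The ratio of ADAM10 to ADAM17 within a library does not depend on the scaling between libraries. It was 1.03 ± 0.0234 in RNA1 Puro and 0.866 ± 0.0207 in RNA1 ABCC1, with no overlap. In RNA3 it was 0.948 ± 0.0328 in Puro and 0.755 ± 0.136 in ABCC1, also with no overlap, while in RNA2 it was 0.920 ± 0.107 and 0.944 ± 0.120, with overlap. The summed level of the alpha-secretase genes over that of the beta-secretase genes per kilobase was 1.73 ± 0.00997 in RNA1 Puro and 1.63 ± 0.0824 in RNA1 ABCC1. It was 2.36 ± 0.336 and 2.21 ± 0.0659 in RNA2 and 1.29 ± 0.00985 and 1.30 ± 0.0696 in RNA3. In RNA1 all ABCC1 libraries had a lower ratio than all Puro libraries, and in RNA2 and RNA3 the lines overlapped. These ratios are of transcripts, not of enzyme activity.

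Levels also varied between experiments, which were prepared with a different kit and instrument in RNA1 than in RNA2 and RNA3, so that differences of RNA1 from the others cannot be told apart from the method. In Puro cells BACE1 was 2.81 times as high in RNA1 as in RNA2, and 1.53 times as high as in RNA3. The 3 ADAM genes were 1.74 to 2.17 times as high in RNA1 Puro as in RNA2 Puro and 1.64 to 2.05 times as high as in RNA3 Puro. RNA2 and RNA3 shared the kit and the instrument. Between them BACE1 was 1.84 times as high in RNA3 as in RNA2 in Puro and 1.41 times in ABCC1, while the ADAM genes had ratios of 1.02 to 1.06 in Puro and 0.752 to 1.08 in ABCC1. BACE2 was lowest in RNA1 and highest in RNA3, from 0.00571 CPM per kilobase in RNA1 Puro to 0.547 in RNA2 Puro and 1.44 in RNA3 Puro, in step with the background.

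APP itself, the common substrate, had 35.2 ± 0.850 CPM per kilobase on its own gene in RNA1 Puro and 32.1 ± 0.426 in RNA1 ABCC1. The APP gene had 409 ± 57.1 and 447 ± 67.4 in RNA2 and 574 ± 164 and 494 ± 43.0 in RNA3. The codon-optimized APP of the vector, counted apart, had 115 ± 1.80 CPM per kilobase in RNA1 Puro and 98.2 ± 8.82 in RNA1 ABCC1, with all ABCC1 libraries (92.7 to 108) below all Puro libraries (114 to 117). It had 98.8 ± 5.38 and 107 ± 16.5 in RNA2 and 140 ± 39.6 and 115 ± 12.4 in RNA3, where the lines overlapped in each.

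**Figure D3:**
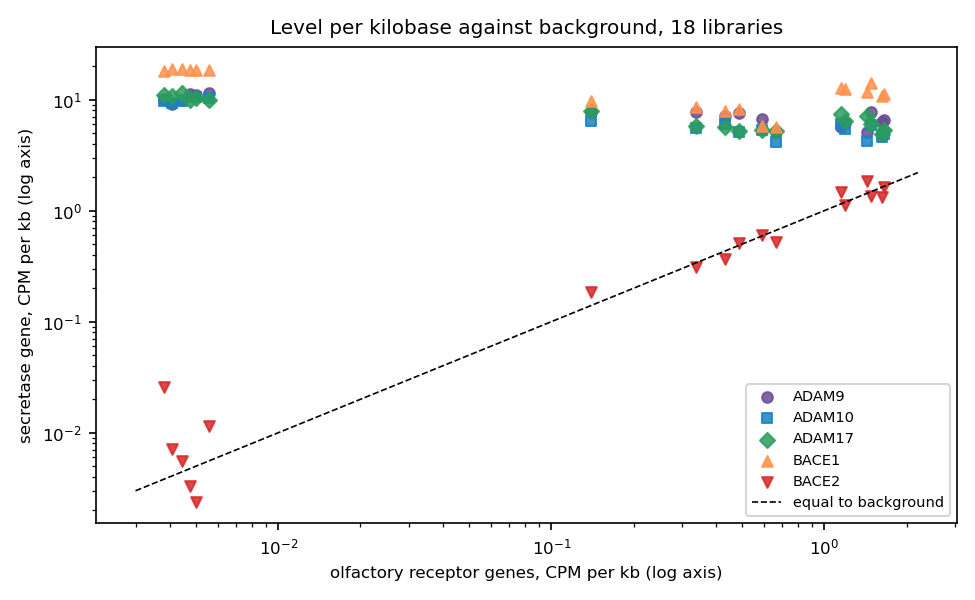
Level of each secretase gene in CPM per kilobase (vertical, log axis) against the mean level of 350 olfactory receptor genes in the same library (horizontal, log axis), 18 libraries; the dashed line marks equal levels. BACE2 lies along the line in the 12 libraries of RNA2 and RNA3, with a background of 75.1% to 128% of its level, while the other 4 genes lie well above it.

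Genes with a profile like that of each secretase were sought among 14232 genes with a mean of at least 1 CPM in each experiment, by Pearson's r of log2 (CPM + 0.1) over the 18 libraries after each experiment's mean was subtracted. This describes the libraries only, which share depth, background and line. The most alike were EPS15 (r = 0.97), SETD7 (r = 0.97) and KIF21A (r = 0.96) for ADAM9, and CAB39 (r = 0.96), ELAVL4 (r = 0.96) and SPCS3 (r = 0.95) for ADAM10. For ADAM17 they were WRNIP1 (r = 0.95), CNPY3 (r = 0.95) and CARNMT1 (r = 0.95), and for BACE1 they were TNPO2 (r = 0.97), FOXO3 (r = 0.97) and AGAP1 (r = 0.96). BACE2, with 0.05 and 0.12 CPM in the 2 lines of RNA1, fell below that level. Among the secretases, ADAM10 and BACE1 were most alike (r = 0.77), and ADAM9 and ADAM17 least (r = 0.11).

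The proteins that mature, carry or inhibit ADAM10 and ADAM17 formed a list of 20 genes, with tetraspanins, rhomboid-like iRhoms, proprotein convertases and tissue inhibitors of metalloproteinases (TIMPs). In RNA1, 3 of the 19 tested rose and 5 fell, in RNA2 1 of 20 rose and none fell, and in RNA3 1 of 20 rose and 1 fell. Of all genes, edgeR called 17.9% higher and 19.7% lower with ABCC1 in RNA1. These shares were 1.25% and 0.458% in RNA2, and 2.03% and 0.767% in RNA3. The median log2FC of the list was 0.05, 0.02 and 0.00, against 0.01, −0.19 and −0.09 over all genes tested. TIMP3, an inhibitor of ADAM10 and ADAM17 that the study singled out in these same libraries, fell by 1.95 on the log2 scale in RNA1 (adjusted p = 1.13e-08) and by 0.90 in RNA3 (adjusted p = 0.000349), and had a log2FC of −0.72 in RNA2 (adjusted p = 0.0598), all in edgeR's quasi-likelihood test. TIMP1, an inhibitor of matrix metalloproteinases and of ADAM10, rose by 0.73 in RNA2 (adjusted p = 0.0374) and by 0.63 in RNA3 (adjusted p = 0.0246), and had a log2FC of 0.30 in RNA1 (adjusted p = 0.0629, edgeR's quasi-likelihood test). With 1 library left out, the TIMP3 calls held in all 6 fits of RNA1 and of RNA3, and the TIMP1 call was lost in 5 of 6 in RNA2 (adjusted p up to 0.131) and in 4 of 6 in RNA3 (adjusted p up to 0.296). With background as a covariate both TIMP1 calls were lost (log2FC 0.53 in RNA2 and 0.21 in RNA3), and both TIMP3 calls held. The convertases PCSK5 and PCSK6 fell in RNA1 by 1.16 and 0.69 on the log2 scale.

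Proteins that bind, sort or degrade BACE1 formed a list of 20 genes, of which 19 were tested in each experiment. In RNA1 3 rose and 5 fell, against 17.9% and 19.7% of all genes. In RNA2 and RNA3 edgeR called none, against 1.7% and 2.8% of all genes. There 6 and 5 had an unadjusted p under 0.05 (21.2% and 15.2% of all genes did), and DESeq2 called 3 and 1 (18.6% and 14.2% of all genes). Their median log2FC was −0.05, 0.29 and 0.08 in the 3 experiments. The reticulons, which bind BACE1 and lower its activity, did not move one way in RNA1. RTN1 rose by 0.75 (adjusted p = 6.88e-06) and RTN2 by 0.20 (adjusted p = 0.0235), whereas RTN4 fell by 0.48 (adjusted p = 9.96e-06) and RTN3 by 0.18 (adjusted p = 0.00720), all in edgeR's quasi-likelihood test. RTN2, RTN3 and RTN4 are given beside RTN1 after their values were seen. In RNA2 and RNA3 RTN1 had log2FC values of 0.59 (adjusted p = 0.0670) and −0.19 (adjusted p = 0.678), neither called in edgeR's quasi-likelihood test. MGAT3, which adds a bisecting sugar to BACE1, fell by 0.58 on the log2 scale in RNA1, and FBXO2, part of a ubiquitin ligase, fell by 0.92 from a level of 0.516 CPM. The FBXO2 call was lost without the first or the third Puro library (adjusted p up to 0.0766), with DESeq2 (adjusted p = 0.171) and with background as a covariate (log2FC −1.17, adjusted p = 0.197). With the spread and scaling of all 18 libraries it was lost (adjusted p = 0.640), as was that of MGAT3 (adjusted p = 0.231, edgeR's quasi-likelihood test).

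Of 17 other ADAM genes of the cell membrane, 4 rose and 1 fell among 11 tested in RNA1, 2 of 17 rose in RNA2 and 1 of 17 rose in RNA3. Of all genes, 17.9% rose and 19.7% fell in RNA1, and 1.25% and 2.03% rose in RNA2 and RNA3. ADAM12, a metalloproteinase of muscle and stroma, was called in all 3 experiments, rising by 0.77 ± 0.06 in RNA1, 0.65 ± 0.16 in RNA2 and 0.57 ± 0.16 in RNA3 (adjusted p = 3.65e-06, 0.0380 and 0.0261, edgeR's quasi-likelihood test). Its level rose from 34.0 to 58.1 CPM in RNA1, from 18.1 to 28.3 in RNA2 and from 33.6 to 50.1 in RNA3. The ADAM12 call held in all 6 fits of RNA1 with 1 library left out, but was lost in 5 of 6 in RNA2 (adjusted p up to 0.191) and in 4 of 6 in RNA3 (adjusted p up to 0.253). ADAM22, a neuronal member without protease activity that binds LGI1, rose by 0.37 in RNA1 and by 0.67 in RNA2 (adjusted p = 0.000439 and 0.0374, edgeR's quasi-likelihood test), and had a log2FC of 0.48 in RNA3 (adjusted p = 0.115). Its RNA2 call was lost in 4 of 6 fits with 1 library left out (adjusted p up to 0.205). ADAM28 and ADAM29 were called in RNA1 at levels under 1 CPM, with log2FC values of 1.20 and −1.20. The ADAM28 call was lost without the first Puro library (adjusted p = 0.0573) and with DESeq2 (adjusted p = 0.0776). With background as a covariate ADAM12 remained called in RNA1, and the other calls of ADAM12, ADAM22, ADAM28 and ADAM29 were lost. For ADAM28 and ADAM22 in RNA1 the log2FC was then about as large as before (1.18 and 0.40) with a larger error, whereas that of ADAM29 shrank to −0.72. ADAM12 and ADAM22 had 0.46 and 0.49 in RNA2, and ADAM12 had 0.51 in RNA3. With the spread and scaling of all 18 libraries the RNA1 calls of ADAM22 and ADAM29 were lost. ADAM15, called higher in RNA1 (log2FC 0.21), was not refitted in either way. Among 14 other proteases that cut APP or share the aspartic fold of BACE1, such as the cathepsins, none was called by edgeR in any experiment, of 9 tested in RNA1 and 14 in RNA2 and RNA3. Of these, 2, 3 and 1 had an unadjusted p under 0.05 in RNA1, RNA2 and RNA3, and DESeq2 called 1 in RNA1 and 2 in RNA2. Over all genes, 46.6%, 21.2% and 15.2% had an unadjusted p under 0.05, and DESeq2 called 23.4% in RNA1 and 18.6% in RNA2.

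Substrates of the secretases were listed by the enzyme that sheds them. Of 27 alpha-secretase substrates, 10 rose and 6 fell among 23 tested in RNA1, 1 rose and 1 fell among 26 in RNA2, and 1 rose among 26 in RNA3. Of all genes, 17.9% rose and 19.7% fell in RNA1, 1.25% rose and 0.458% fell in RNA2, and 2.03% rose in RNA3. EFNB1, a ligand of Eph receptors, rose by 0.94 in RNA1 and 0.95 in RNA3 (adjusted p = 7.52e-07 and 0.00145, edgeR's quasi-likelihood test), with a log2FC of 0.82 in RNA2 (adjusted p = 0.0625). NOTCH2, a receptor cut by ADAM10 upon ligand binding, rose by 0.59 in RNA1 and 0.75 in RNA2 (adjusted p = 6.04e-06 and 0.0196, edgeR's quasi-likelihood test), with a log2FC of 0.15 in RNA3 (adjusted p = 0.712). ERBB4, a neuregulin receptor shed by ADAM17, fell by 2.64 in RNA1, from 8.65 to 1.39 CPM, and by 0.93 in RNA2 (adjusted p = 3.23e-08 and 0.0326, edgeR's quasi-likelihood test). In RNA3 its log2FC was −0.56 ± 0.18 (adjusted p = 0.0715, edgeR's quasi-likelihood test). The background came to between 53.7% and 83.0% of the ERBB4 level in RNA2 Puro and to 31.2%, 72.5% and 95.5% in the 3 RNA2 ABCC1 libraries. In RNA3 it came to between 95.5% and 111% in Puro and between 84.0% and 158% in ABCC1, so ERBB4 was not distinguishable from background there. With 1 library left out, the RNA2 calls of ERBB4 and NOTCH2 were lost in 4 and 3 of 6 fits (adjusted p up to 0.181 and 0.144), and the EFNB1 calls held. With background as a covariate the EFNB1 call in RNA3 was lost (log2FC 0.56, adjusted p = 0.418, edgeR's quasi-likelihood test), as were the RNA2 calls of ERBB4 and NOTCH2, at log2FC values of −0.96 and 0.55. The background came to between 56.3% and 64.2% of the EFNB1 level in RNA3 Puro and to between 20.3% and 37.9% in RNA3 ABCC1. In RNA1 the chemokine CX3CL1 rose by 1.02, and the TNF receptor TNFRSF1B fell by 3.57 on the log2 scale from a level of 0.521 CPM, a call lost with background as a covariate (log2FC −2.93, adjusted p = 0.0709, edgeR's quasi-likelihood test).

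Of 23 substrates of BACE1 or BACE2, 5 rose and 6 fell among 21 tested in RNA1, none was called by edgeR in RNA2, where 12 had an unadjusted p under 0.05 (21.2% of all genes) and DESeq2 called 6 (18.6% of all genes), and 1 of 23 fell in RNA3. SEZ6, a neuronal membrane protein cut mainly by BACE1, fell by 1.53 ± 0.06 on the log2 scale in RNA1, from 122 to 42.2 CPM, and by 1.28 ± 0.17 in RNA3, from 65.1 to 26.8 CPM (adjusted p = 2.57e-08 and 2.32e-08, edgeR's quasi-likelihood test). In RNA2 its log2FC was −0.75 ± 0.21 (adjusted p = 0.0614). Both SEZ6 calls held in every fit with 1 library left out. NRG1, a neuregulin that BACE1 processes, rose by 0.60 in RNA1 (adjusted p = 0.000432, edgeR's quasi-likelihood test). PMEL, a pigment cell protein cut by BACE2, fell by 1.07 on the log2 scale in RNA1 from a level of 0.706 CPM. The PMEL call was lost without the second or the third Puro library or the first ABCC1 library (log2FC −1.39 to −0.75 with 1 library left out, adjusted p up to 0.102) and with DESeq2 (adjusted p = 0.0713), and with background as a covariate, where its log2FC was −1.05 ± 0.64 against −1.07 ± 0.32 without it (adjusted p = 0.381, edgeR's quasi-likelihood test). With that covariate NRG1 missed the threshold with a smaller log2FC of 0.36 ± 0.15 (adjusted p = 0.202, edgeR's quasi-likelihood test). The counts of genes that rose or fell in these lists are read against the shares that edgeR called among all genes, 37.6%, 1.7% and 2.8%.

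**Figure D4:**
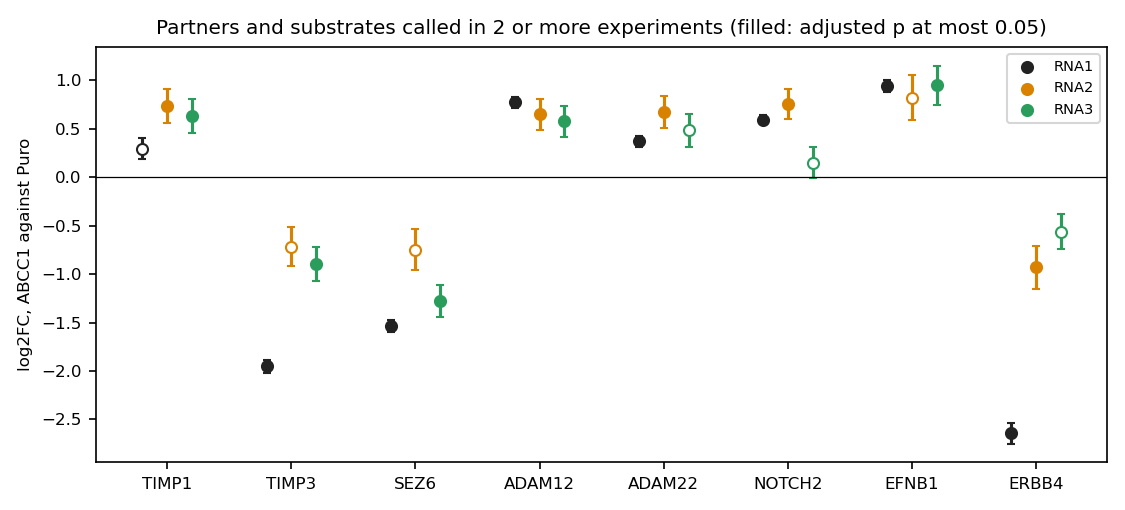
Difference between the lines as log2FC (ABCC1 against Puro; points, filled where the adjusted p was at most 0.05) with its standard error (bars) for 8 regulators, relatives and substrates of the secretases that were called the same way in 2 or more of RNA1, RNA2 and RNA3. TIMP3, SEZ6 and ERBB4 lie below 0 in all 3 experiments and the other 5 above 0, and only ADAM12 is called in all 3. In RNA3 the level of ERBB4 was that of background reads.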

How the data were processed

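The RNA of 18 libraries was measured, 3 per line and experiment. The authors made FASTQ files with bcl2fastq 2.18, aligned them with STAR 2.7.3a to GRCh37, and counted read pairs per gene with featureCounts of Subread 2.0.0; they deposited these counts without normalization. Per the file headers, the counts are summed over the exons of each of 57905 Ensembl genes, 92 spike-in controls and 6 vector sequences. Counting was unstranded, so reads of a gene and of an overlapping gene on the other strand were separated by position only. Symbols were matched to 51996 of the IDs by the GENCODE annotation. For the first experiment the labels name 2 library kits, and the one the study's methods give was used.

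Each experiment was fitted in R 4.3.3 with edgeR 4.0.16 (filterByExpr with a minimum count of 10, TMM, robust quasi-likelihood test, two-sided), with Benjamini-Hochberg adjustment over every gene in the fit and calls at an adjusted p of at most 0.05. A fit of all 18 libraries gave the mean effect and its difference between experiments. Alternatives were DESeq2 1.42.0, limma-voom (limma 3.58.1), RLE size factors, other filters, the replicate number as a block, the background as a covariate, a spread shared over the 18 libraries, and each library left out. The fit with the shared spread also took its filter and TMM scaling from all 18 libraries. Background is the count on olfactory receptor genes per kilobase. It was scaled by TMM where levels are given, and by assigned pairs (as log2) in the covariate. A value given as ± without other words is a log2FC with its standard error, or a level with the SD of 3 libraries.

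Replicate pairs of each group differed by a chi-square of 1.49 to 22.7 per degree of freedom, so none was a copy of another. In RNA1 ABCC1 the third library differed from the first by 21.5 and from the second by 16.1, and the first differed from the second by 1.49. Same-numbered libraries of the 2 lines had mean correlations of −0.04, −0.06 and 0.04 of their deviations in the 3 experiments, so the numbers were not taken as pairs. The scripts were tested on simulated data: of 200 changed genes, all changed 4-fold were recovered in RNA1 and RNA3 and 99.1% in RNA2, and of those changed 1.5-fold 97.0%, 32.0% and 22.6% in RNA1, RNA3 and RNA2. The changed genes were drawn from those with many counts, and no background tied to the line was simulated. These rates therefore do not cover genes with few counts, such as BACE2, FBXO2 and PMEL in RNA1.

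The 5 genes and the 6 lists of partners and substrates were chosen with earlier results of these data known. Of each list the text names the genes called in the same direction in at least 2 experiments and up to 3 called genes with the largest change per experiment. FURIN, NRDC, APP, APLP2, L1CAM, LRP1 and NRG1 stand in 2 lists. BACE1-AS was not analysed here.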

Additional observations from a re-analysis of the deposited data

Results flagged for a closer look

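ADAM10 was listed because its groups moved in opposite directions in 2 experiments: all ABCC1 libraries were below all Puro libraries in RNA1 (log2FC −0.13) and above them in RNA2 (log2FC 0.31). The difference of the effect between experiments did not pass edgeR's quasi-likelihood test in the joint fit (adjusted p = 0.854), and the call in RNA1 was itself lost under several alternatives. With 3 libraries per group, single libraries were not tested as outliers.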

How the results depend on the processing

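Differences were given within experiments of 3 libraries against 3, which limits calls to differences well above the spread, and in RNA2 and RNA3 the depth is 8866994 to 30996228 read pairs with background reads on silent genes. With the replicate number as a block, which rests on a shared number only, ADAM9 kept its call in RNA1 (adjusted p = 0.0179), ADAM10 lost it (−0.13, adjusted p = 0.0847), and the ADAM17 mean was 0.33 (adjusted p = 0.00667). ADAM10 in RNA1 was also not called with DESeq2 (−0.13), without a filter on low counts (−0.10), with background as a covariate (−0.12) or with the spread and scaling of all 18 libraries (−0.0245). ADAM9 in RNA1 was not called with background as a covariate (−0.21) or with that spread and scaling (−0.11). That scaling alone raised every log2FC in RNA1 by 0.10, so these fits do not show the effect of the spread alone. ADAM17 in RNA1 was called without the filter (0.15), and BACE2 in RNA2 with the spread and scaling of all libraries (−0.91). With background as a covariate the sign changed for ADAM17 in RNA2 (−0.0404), ADAM10 in RNA3 (−0.37), BACE1 in RNA3 (−0.19) and the ADAM10 mean (−0.0131), and the ADAM17 mean was not called (0.14). In RNA1 that covariate left ADAM9 and ADAM10 near their values without it and raised ADAM17 to 0.18, with standard errors of 0.11, 0.0849 and 0.0976 against 0.0502, 0.0395 and 0.0474. With background counts subtracted, chosen after seeing the data, ADAM9 in RNA3 was called (−0.48), and ADAM10 (−0.0330) and BACE1 (−0.14) in RNA3 changed sign. With at least 10 counts in every library the ADAM9 mean was called (−0.21) and the ADAM10 mean was −0.0407. Over RNA2 and RNA3 only, the ADAM9 mean was 0.00968 and the BACE2 mean −0.40.

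With 1 library left out, the log2FC ranged from −0.14 to −0.11 for ADAM10 in RNA1, from 0.10 to 0.15 for ADAM17 in RNA1, from −0.0653 to 0.22 for ADAM10, from 0.33 to 0.47 for ADAM17, from −0.00663 to 0.16 for BACE1 and from −0.11 to 0.20 for BACE2 in RNA3. The means ranged from −0.0808 to 0.0264 for ADAM9, from 0.19 to 0.30 for BACE1 and from −0.12 to 0.37 for BACE2. The BACE1 mean was called without the second Puro library of RNA2 (0.30) or of RNA3 (0.28). The causes of these changes were not tested.

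The counts of called genes in the lists were recomputed with DESeq2, RLE size factors, the stricter filter and the block. In RNA1 they moved by over 1.5 times only for the other proteases, with 1 gene called by DESeq2 and 1 with the block. Over all genes, edgeR called 581 in RNA2 and 1021 in RNA3, against 2849 (18.6% of those with an adjusted p) and 1597 (14.2%) by DESeq2, 1086 (3.19%) and 1165 (3.19%) with RLE size factors, 788 (3.55%) and 1725 (6.25%) with the stricter filter, 710 (2.08%) and 1885 (5.16%) with the block and 1307 and 1040 by limma-voom. In RNA2, DESeq2 called 3 regulators, 3 BACE1 partners, 2 other proteases, 5 alpha-secretase substrates and 6 BACE substrates, and RLE size factors called 2, 1, 2 and 3 genes of the regulators, BACE1 partners, other proteases and BACE substrates. The stricter filter called 2 regulators, 1 other protease and 3 BACE substrates in RNA2, and the block 2, 1 and 3 of these and 1 other ADAM gene. In RNA3, 1 BACE1 partner and 2 other ADAM genes were called by DESeq2, 2 and 2 with the stricter filter, and 2, 2 and 4 BACE1 partners, other ADAM genes and alpha-secretase substrates with the block. The 28 called values of named partners and substrates kept their sign in all 417 alternative values, of which 64 were no longer called. Background as a covariate ended 15 of the 28 calls, and background subtracted ended 5. The spread and scaling of all 18 libraries ended 5 (PMEL, FBXO2, MGAT3, ADAM22 and ADAM29 in RNA1), and DESeq2 ended 3 (PMEL, FBXO2 and ADAM28 in RNA1).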
